A study of Mus musculus with 22 samples.

Results

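The 9 genes described here are the Notch pathway genes Notch1, Notch4, Dll3, Jag2, Rbpj, Dtx1, Nrarp, Hes1 and Hes6, taken by symbol from a table of read counts for 21881 mouse gene symbols. Notch receptors sit in the cell surface and are bound by Delta or Jagged ligands on neighbouring cells. Binding leads to cleavage of the receptor by ADAM proteases and gamma-secretase, and the freed intracellular part enters the nucleus, where it joins the DNA-binding factor RBPJ and turns on genes such as Hes1, Nrarp and Dtx1. In the mouse blastocyst, Notch acts together with the Hippo pathway on Cdx2 in the trophectoderm.

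RNA was sequenced from 7 cell lines and from 8 single embryos. Of the lines, 2 were embryonic stem (ES) lines, a model of the epiblast. Another 3 were trophoblast stem (TS) lines, derived from trophectoderm, and 2 were XEN lines (extraembryonic endoderm), the counterpart of primitive endoderm. All 7 lines are labelled wild type for Nanog. They are named here by sex and number, as ES F1 and ES M2, TS F1, TS F2 and TS M3, and XEN M1 and XEN M2, so that both XEN lines are male. The ES libraries are labelled serum free, and no medium is named for the others. Each line was sequenced from 2 passages, which are technical replicates, and their counts were summed. The embryos, at embryonic day 3.5, were 4 Nanog-null (F1, F2, M1, M2), 2 heterozygous (F, M) and 2 wild-type (F, M) embryos. They are whole blastocysts, which hold cells of several lineages. Embryo cDNA was amplified before library preparation and line RNA was not, so no level was compared between the embryos and the lines. Levels are given as normalised CPM, which is counts per 1000000 of the library total after TMM scaling, and they are compared between samples and not between genes, because gene length was not used.

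The line libraries held 8.20 to 23.7 M counts (M, 1000000 counts) and the embryo libraries 14.8 to 32.2 M. Summed marker levels went with the lineage labels, but not every single marker did. The ES marker Utf1 was at 127 and 203 normalised CPM in ES F1 and M2 and at 273 to 297 in TS lines. The TS marker Tead4 was at 102 to 121 in TS lines and at 122 and 95.6 in XEN M1 and M2. The summed level of 9 ES markers was 6310 to 6320 normalised CPM in ES lines, 748 to 1050 in TS lines and 205 to 209 in XEN lines. The summed level of the 8 TS markers in the table was 115 to 132 in ES lines, 2240 to 5800 in TS lines and 745 to 790 in XEN lines, and that of 9 XEN markers was 174 to 176, 631 to 1070 and 34400 to 37700. Fibroblast markers, 8 of 8 in the table, summed to 5.07 to 6.45 in ES lines, 23.3 to 104 in TS lines and 2.09 to 7.96 in XEN lines, with Col3a1, Dcn, Lum and Postn at 0 in ES lines and Col3a1 and Lum at 0 in XEN lines. The 8 endothelial markers summed to 79.9 to 93.7, 52.1 to 185 and 170 to 181, and Cdh5 reached 109 in TS M3. The 8 blood markers summed to 400 to 628 in ES lines, 197 to 746 in TS lines and 4.70 to 6.91 in XEN lines. Laptm5 made up most of this in ES and TS lines, at 611 and 380 normalised CPM in ES F1 and M2 and 182, 704 and 169 in TS F1, F2 and M3, while Ptprc, Tyrobp and Lyz2 were at 0 in ES lines. The part of fibroblast, endothelial or blood RNA in the differences between lineages was not tested. Nanog was at 0.33 to 0.60 normalised CPM in null embryos, 50.1 and 87.3 in heterozygous and 103 and 130 in wild-type embryos. Null embryos F1 and M2 stood apart in detection. There, 566 and 798 genes had no more than 3 counts where the mean of the other 7 embryos was 5 normalised CPM or above, against 300 in null F2, 135 in null M1 and 40 to 68 in the heterozygous and wild-type embryos.

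All 9 genes passed the filter on low counts in the lines. XEN lines had the lowest mean level of 7 of them. Rbpj and Dtx1 were highest in ES lines and lowest in XEN lines. Notch4 was lowest in XEN lines too, and its ES over TS difference did not pass the test. Jag2 and Nrarp were highest in TS lines and Dll3 did not pass the test between ES and TS lines, and these 3 were again lowest in XEN lines. Hes1 was highest in ES lines and lowest in TS lines, and Hes6 was highest in XEN lines. Notch1 passed no test between lineages.

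**Figure D1:**
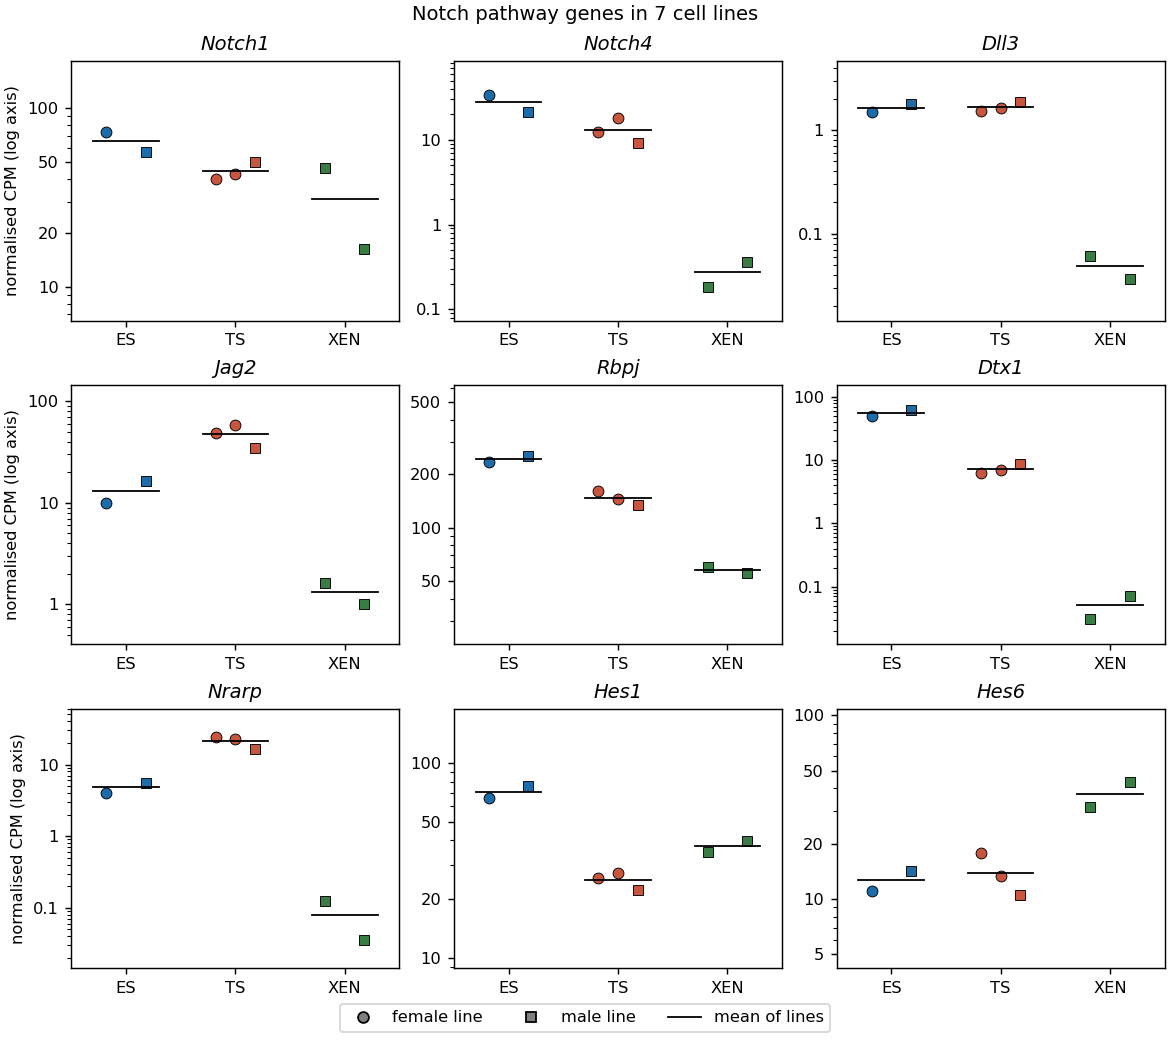
Normalised CPM (log axis, a separate scale per gene) of the 9 Notch pathway genes in ES, TS and XEN lines, 1 point per line with counts of both passages summed, circles for female and squares for male lines, and a bar at the mean. The XEN lines lie below the ES and TS lines for Notch4, Dll3, Jag2, Rbpj, Dtx1 and Nrarp and above them for Hes6.

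Of the 9 genes, 5 were called between ES and TS lines (3 higher and 2 lower in ES), or 55.6%, where 41.3% of all 14687 genes tested were called. Between ES and XEN lines 8 were called (7 higher and 1 lower in ES), or 88.9% against 45.1% of all genes. Between TS and XEN lines 8 were called (6 higher and 2 lower in TS), or 88.9% against 36.7%. Calls are at an adjusted p under 0.05 in edgeR's quasi-likelihood test with Benjamini-Hochberg adjustment over all genes. These 3 comparisons share lines with each other. The median log2 fold change of the 9 genes was 0.56 for ES over TS, 3.31 for ES over XEN and 4.95 for TS over XEN, and that of all genes tested was -0.02, 0.05 and 0.02. The 9 genes were chosen with earlier results of these data known, so these shares and medians describe the set and do not test it. Notch4, Dll3, Dtx1 and Nrarp had 3 to 16 counts in XEN lines and passed the filter through ES and TS lines. Of 50 other pathway genes tested, 42.0%, 58.0% and 32.0% were called in the same comparisons. In bulk RNA, fewer cells that express a gene and less RNA per cell cannot be told apart.

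**Figure D2:**
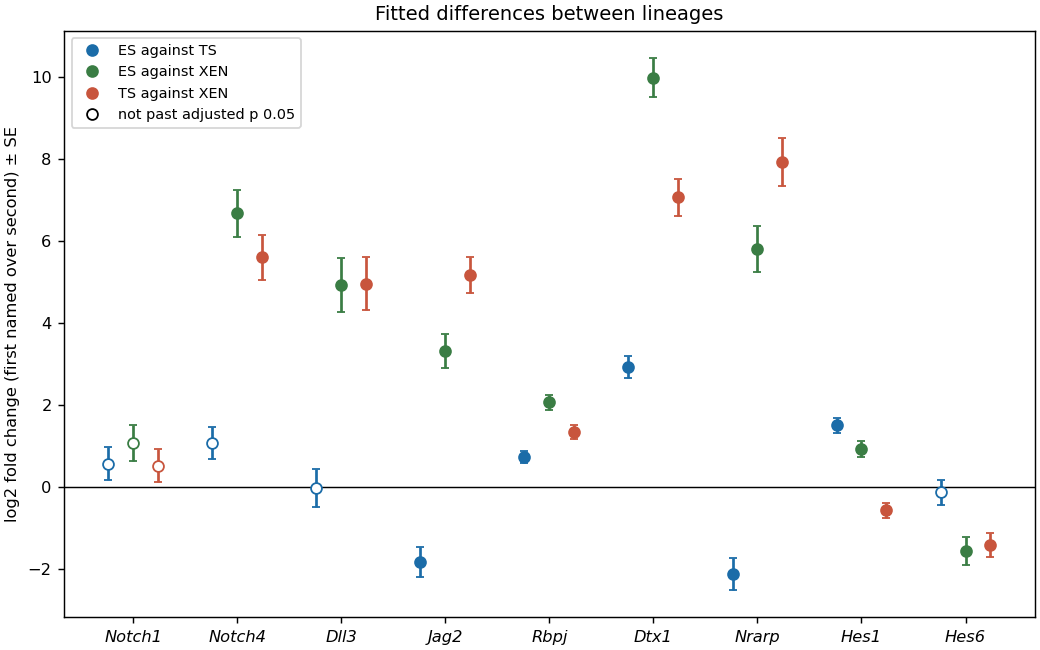
Fitted log2 fold change of each gene between lineages, with SE bars, for ES over TS (blue), ES over XEN (green) and TS over XEN (red), where open circles did not pass an adjusted p of 0.05. Dtx1 has the largest ES over XEN value of the 9, at 9.97, and Nrarp the largest TS over XEN value, at 7.92, while Hes6 lies below 0 in every comparison.

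Sequences before the gene start are shown for the 4 genes that held one of the motifs searched, to set the promoter beside the lineage pattern. They come from RefSeq on GRCm38.p6, another build than the mm9 of the counts, and run from 250 bases before to 50 bases after an annotated start, 5′ to 3′ on the strand of the gene. Of the 9 genes, 8 had a promoter in that table, and Hes1 is named only. Capitals mark the RBPJ core motif TGGGAA, the E box CACGTG, which is bound by many basic helix-loop-helix factors, and CACGCG, a site bound by Hes proteins, each on either strand. No 2 matches overlapped. Jag2 lies at chr12:112929446-112929745, minus strand, and Nrarp at chr2:25180508-25180807, plus strand, and both were highest in TS lines. Rbpj lies at chr5:53590096-53590395, plus strand, and Dtx1 at chr5:120711620-120711919, minus strand, and both were highest in ES lines.
Jag2: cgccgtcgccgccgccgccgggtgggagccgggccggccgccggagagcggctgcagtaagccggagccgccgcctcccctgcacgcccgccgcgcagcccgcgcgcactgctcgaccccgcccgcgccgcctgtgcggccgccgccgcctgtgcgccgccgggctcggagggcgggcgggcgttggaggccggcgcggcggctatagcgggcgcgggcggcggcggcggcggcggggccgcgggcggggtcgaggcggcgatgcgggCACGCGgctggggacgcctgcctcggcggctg
Nrarp: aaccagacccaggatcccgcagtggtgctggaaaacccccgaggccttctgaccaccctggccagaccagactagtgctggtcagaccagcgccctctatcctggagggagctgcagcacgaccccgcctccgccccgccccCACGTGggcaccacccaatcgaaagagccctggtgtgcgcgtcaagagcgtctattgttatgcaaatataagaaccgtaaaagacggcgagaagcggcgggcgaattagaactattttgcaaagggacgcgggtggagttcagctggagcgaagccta
Rbpj: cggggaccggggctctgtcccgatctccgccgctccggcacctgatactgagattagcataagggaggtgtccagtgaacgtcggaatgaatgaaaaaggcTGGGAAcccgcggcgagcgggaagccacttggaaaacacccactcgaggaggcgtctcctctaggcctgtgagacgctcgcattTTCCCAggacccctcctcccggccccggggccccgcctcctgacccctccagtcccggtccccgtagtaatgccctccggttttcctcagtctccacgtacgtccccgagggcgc
Dtx1: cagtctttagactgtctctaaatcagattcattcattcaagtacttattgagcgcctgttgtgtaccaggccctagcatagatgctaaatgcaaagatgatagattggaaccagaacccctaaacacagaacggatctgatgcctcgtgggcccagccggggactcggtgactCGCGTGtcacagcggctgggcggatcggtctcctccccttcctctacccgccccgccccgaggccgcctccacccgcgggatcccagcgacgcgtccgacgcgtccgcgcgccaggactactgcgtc

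The RBPJ core motif was found in 1 of these 8 genes, Rbpj itself, at 149 bases before the start on the same strand and at 65 bases before it on the other strand. The second match also lies in the window of another annotated Rbpj start. The motif is common: 25.6% of all 32851 promoters of the same length held it. This share and those below are over promoters, of which the 8 genes have 10, and are not on the scale of the gene counts. CACGTG was found in 1 of the 8 genes, Nrarp, at 108 bases before the start, and in 7.15% of all promoters. CACGCG was found in Jag2, at base 19 after the start, and in Dtx1, at 77 bases before it on the other strand, and in 9.27% of all promoters. These matches describe letters in the window and not binding.

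Notch1 and Notch4 differed in how they varied over the lineages. The receptors outside the set were not low in XEN lines. Notch2 had 47 and 62 normalised CPM in XEN M1 and M2, against 33 and 34 in ES F1 and M2, and passed no test. Notch3 had 101 and 85 in XEN M1 and M2, against 34 and 44 in ES F1 and M2. It was lower in ES than in XEN lines (log2 -1.24, SE 0.28, edgeR adjusted p = 0.0102) and than in TS lines (-0.87, SE 0.26, edgeR adjusted p = 0.0338). Notch1, the receptor with the widest known use in mouse development, had 73.4 and 57.1 normalised CPM in ES F1 and ES M2, against 40.2, 42.6 and 49.9 in TS F1, F2 and M3. XEN M1 and XEN M2 had 46.0 and 16.2, so that the XEN lines lay furthest apart, and XEN M1 was within the range of the TS lines. The log2 fold change was 0.56 for ES over TS (SE 0.39, edgeR adjusted p = 0.282), 1.07 for ES over XEN (SE 0.44, edgeR adjusted p = 0.0848) and 0.51 for TS over XEN (SE 0.40, edgeR adjusted p = 0.359). The ES over XEN value passed in 4 of 13 alternatives, with values from 0.49 to 2.00 and adjusted p from 0.00442 to 0.284, and the TS over XEN value in 1 of 13. Without XEN M1 they were 2.00 (edgeR adjusted p = 0.00442) and 1.44 (edgeR adjusted p = 0.0138), and without XEN M2 the TS over XEN value was -0.06. Wherever leaving out a line leaves a lineage with 1 line, as here, the test assumes that this line varies like the lines of the other lineages. The passages of XEN M2 had 19.8 and 10.2 normalised CPM.

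Notch4, a receptor best known from blood vessel endothelium, was nearly absent from XEN lines. It had 34.1 and 21.4 normalised CPM in ES F1 and M2, 12.4, 18.2 and 9.18 in TS F1, F2 and M3, and 0.184 and 0.362 in XEN M1 and M2, where it rested on 16 counts in all. No line values overlapped between lineages, but a passage of TS F2 (20.5) lay above a passage of ES M2 (19.6). The share of all genes without overlap between lines was not counted. Statements on overlap here and below therefore only describe the genes. ES exceeded XEN lines 101-fold (log2 6.66, SE 0.58, edgeR adjusted p = 0.000213) and TS exceeded XEN lines 48.2-fold (log2 5.59, SE 0.55, edgeR adjusted p = 0.000405). The ES over TS value, 1.07 (SE 0.39), missed the threshold (edgeR adjusted p = 0.0624). It passed in 5 of 13 alternatives, with adjusted p from 0.0134 to 0.391, and without TS F2 it was 1.38 (edgeR adjusted p = 0.0447). The passages of TS F1 differed 3.12-fold, at 18.9 and 6.04 normalised CPM. The endothelial markers did not share 1 order. Pecam1 ran with Notch4, at 67.6 and 81.3 normalised CPM in ES F1 and M2, 26.0, 78.1 and 31.2 in TS F1, F2 and M3 and 0.307 and 0.0723 in XEN M1 and M2, and Pecam1 and Kdr (56.0) were, like Notch4, highest of the TS lines in TS F2. Cdh5 was at 0 and 0.0477 in ES F1 and M2, 1.38, 8.07 and 109 in TS F1, F2 and M3 and 21.7 and 21.9 in XEN M1 and M2. Tek was at 7.21 and 8.74 in ES F1 and M2, 0.0927 to 0.259 in TS lines and 139 and 149 in XEN M1 and M2, and Cldn5 and Emcn were at 0.477 or less in every line. The part of endothelial RNA in the Notch4 values was not tested.

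The ligands did not move together between ES and TS lines. Jag2, a ligand that activates receptors on neighbouring cells, had 9.99 and 16.4 normalised CPM in ES F1 and M2, 49.2, 58.1 and 34.9 in TS F1, F2 and M3, and 1.63 and 1.01 in XEN M1 and M2. Every TS line was above every ES line, and every ES line above both XEN lines. Jag2 fell by 1.84 on the log2 scale in ES against TS lines (SE 0.36, edgeR adjusted p = 0.00695), and this call was lost without ES F1 (-1.53, edgeR adjusted p = 0.0639). It was 9.94-fold higher in ES than in XEN lines (log2 3.31, SE 0.42, edgeR adjusted p = 0.000889) and 35.7-fold higher in TS than in XEN lines (log2 5.16, SE 0.44, edgeR adjusted p = 0.000233). The 2 passages of XEN M2 had 23 and 5 counts.

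Dll3, a Delta family member known to hold Notch back within the cell that makes it, was low in every line. ES F1 and M2 had 1.50 and 1.77 normalised CPM, TS F1, F2 and M3 had 1.52, 1.64 and 1.85, and XEN M1 and M2 had 0.0614 and 0.0362. ES and TS values overlapped, and their log2 difference was -0.03 (SE 0.46, edgeR adjusted p = 0.984). The XEN lines gave 3 counts in all. The ratio of ES to XEN lines from summed counts was 32.9 (95% counting interval 10.8 to 164) and that of TS to XEN lines 33.0 (11.1 to 162). Both differences passed the test (edgeR adjusted p = 0.0012 for ES against XEN and 0.00133 for TS against XEN). The ES M2 passages had 7 and 30 counts.

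Rbpj, the DNA-binding factor on which the canonical pathway ends, followed a graded order with little spread between lines of a lineage. It had 232 and 251 normalised CPM in ES F1 and M2, 160, 145 and 134 in TS F1, F2 and M3, and 60.5 and 55.7 in XEN M1 and M2. The passages of TS F1 differed 1.6-fold, at 198 and 123 normalised CPM. No values overlapped between lineages. ES lines were 4.16-fold above XEN lines (log2 2.06, SE 0.18, edgeR adjusted p = 0.000212) and TS lines 2.52-fold above XEN lines (log2 1.33, SE 0.16, edgeR adjusted p = 0.00104). ES lines were 1.65-fold above TS lines (log2 0.72, SE 0.16, edgeR adjusted p = 0.00965). That last call needed both ES lines: it was lost without ES F1 (0.77, edgeR adjusted p = 0.0632) and without ES M2 (0.67, edgeR adjusted p = 0.086).

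The feedback genes showed the widest range. Dtx1 encodes Deltex, a ubiquitin ligase that binds the intracellular part of Notch. It had 48.9 and 61.6 normalised CPM in ES F1 and M2, 6.26, 7.05 and 8.62 in TS F1, F2 and M3, and 0.0307 and 0.0723 in XEN M1 and M2. ES lines were 7.56-fold above TS lines (log2 2.92, SE 0.27, edgeR adjusted p = 0.000424). The XEN lines gave 3 counts in all, against 2206 in ES and 576 in TS lines, which makes the ratio of ES to XEN lines 1120 (95% counting interval 381 to 5420) and that of TS to XEN lines 143 (48.7 to 696). Both passed the test (edgeR adjusted p = 2.33e-05 for ES against XEN and 7.45e-05 for TS against XEN). The TS M3 passages differed 2.71-fold, at 13.3 and 4.92 normalised CPM.

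Nrarp, a small ankyrin repeat protein that limits the active Notch complex, showed the opposite order between ES and TS lines. It had 4.01 and 5.59 normalised CPM in ES F1 and M2, 24.1, 22.6 and 16.5 in TS F1, F2 and M3, and 0.123 and 0.0362 in XEN M1 and M2. No values overlapped between lineages. Nrarp fell by 2.13 on the log2 scale in ES against TS lines (SE 0.40, edgeR adjusted p = 0.00561), a call that was lost without ES F1 (-1.92, edgeR adjusted p = 0.0622). From summed counts, the ratio of ES to XEN lines was 58.3 (95% counting interval 24.5 to 182, edgeR adjusted p = 0.000318) and that of TS to XEN lines 260 (111 to 802, edgeR adjusted p = 0.000123), where the XEN lines had 5 counts. The passages of ES F1 differed 2.36-fold.

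The Hes genes were both well above 0 in XEN lines. Hes1, a transcriptional repressor and a standard readout of Notch that other signals also control in ES cells, had 66.3 and 75.6 normalised CPM in ES F1 and M2, 25.7, 27.4 and 22.2 in TS F1, F2 and M3, and 35.1 and 39.9 in XEN M1 and M2. No line values overlapped between lineages, and the XEN lines lay between TS and ES lines. Single passages did overlap, as a passage of TS F2 (32.8) lay above a passage of XEN M1 (31.2). ES lines were 2.82-fold above TS lines (log2 1.50, SE 0.18, edgeR adjusted p = 0.00109) and 1.89-fold above XEN lines (log2 0.92, SE 0.20, edgeR adjusted p = 0.0087), where the second call was lost without ES M2 (0.82, edgeR adjusted p = 0.0801). TS lines were below XEN lines by -0.58 (SE 0.18, edgeR adjusted p = 0.0417). This last call held in 3 of 13 alternatives, with values from -0.67 to -0.49 and adjusted p from 0.0096 to 0.165, and was lost when any 1 line was left out.

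Hes6, a Hes family member that opposes Hes1, was highest in XEN lines. It had 11.1 and 14.2 normalised CPM in ES F1 and M2, 17.9, 13.4 and 10.5 in TS F1, F2 and M3, and 31.5 and 43.5 in XEN M1 and M2. ES and TS values overlapped (log2 difference -0.14, SE 0.30, edgeR adjusted p = 0.737), and both XEN lines lay above all of them. Hes6 fell by 1.57 on the log2 scale in ES against XEN lines (SE 0.34, edgeR adjusted p = 0.00815) and by 1.43 in TS against XEN lines (SE 0.30, edgeR adjusted p = 0.00887). The first call was lost without ES F1 (-1.41, edgeR adjusted p = 0.0656) and the second without XEN M2 (-1.18, edgeR adjusted p = 0.0556).

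Over the 14 line libraries, log2 levels of some of these genes rose and fell together, which largely restates the lineage means since libraries share a line and a lineage. Jag2 and Nrarp had the highest Pearson r of the pairs, 0.987, then Rbpj and Dtx1 with 0.967 and Notch4 and Rbpj with 0.956. Hes6 ran opposite to Dll3 (-0.928). Hes1 lay between -0.31 and 0.37 with each of the other 8. Of the other genes tested, those nearest in pattern were Pfkp (0.984) and Sox2 (0.983) for Notch4, Unc93b1 (0.989) and Tbc1d2 (0.988) for Jag2, Cdx1 (0.992) and Arhgef10l (0.991) for Dtx1, and St6gal1 and Nkd1 (0.994 each) for Nrarp. Rbpj was nearest to Slc27a2 (0.987) and Sykb (0.985), and Dll3 to Parp12 and Nfil3 (0.979 each). Hes1 was nearest to Tcfap4 (0.96) and Tyw3 (0.956), Hes6 to Arl4d (0.948) and Mttp (0.939) and Notch1 to Stat6 (0.926) and Rab11fip4 (0.921). More than 100 genes passed an r of 0.95 with Notch4 (118), Jag2 (166), Rbpj (118), Dtx1 (163) and Nrarp (206), against 71 with Dll3, 5 with Hes1 and 0 with Notch1 or Hes6.

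The rest of the pathway held 54 further genes, of which 50 were tested. Of the 50, 7 rose and 14 fell in ES against TS lines (42.0% called), 11 rose and 18 fell in ES against XEN lines (58.0%), and 8 rose and 8 fell in TS against XEN lines (32.0%), beside 41.3%, 45.1% and 36.7% of all genes. All receptor cleavage genes that were called moved in the same direction: 7 of its 9 genes fell and 0 rose in ES against TS lines, 9 of 9 fell in ES against XEN lines and 2 fell in TS against XEN lines. Adam10, the protease of the first ligand-dependent cut, had 53.1 and 49.5 normalised CPM in ES F1 and M2, against 464 and 349 in XEN M1 and M2 (log2 -2.99, SE 0.24, edgeR adjusted p = 0.000161), and also fell in TS against XEN lines (-2.17, SE 0.20, edgeR adjusted p = 0.000338). Ncstn, a gamma-secretase subunit, fell by 1.32 in ES against TS lines (SE 0.16) and by 1.46 in ES against XEN lines (SE 0.17). Furin, which cuts the receptor on its way to the surface, fell by 2.00 and 1.78 in the same comparisons, and Psen2, a catalytic gamma-secretase subunit, fell by 1.63 in ES against TS lines. These values for Ncstn, Furin and Psen2 passed edgeR's test at an adjusted p of 0.00364 or less.

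**Figure D3:**
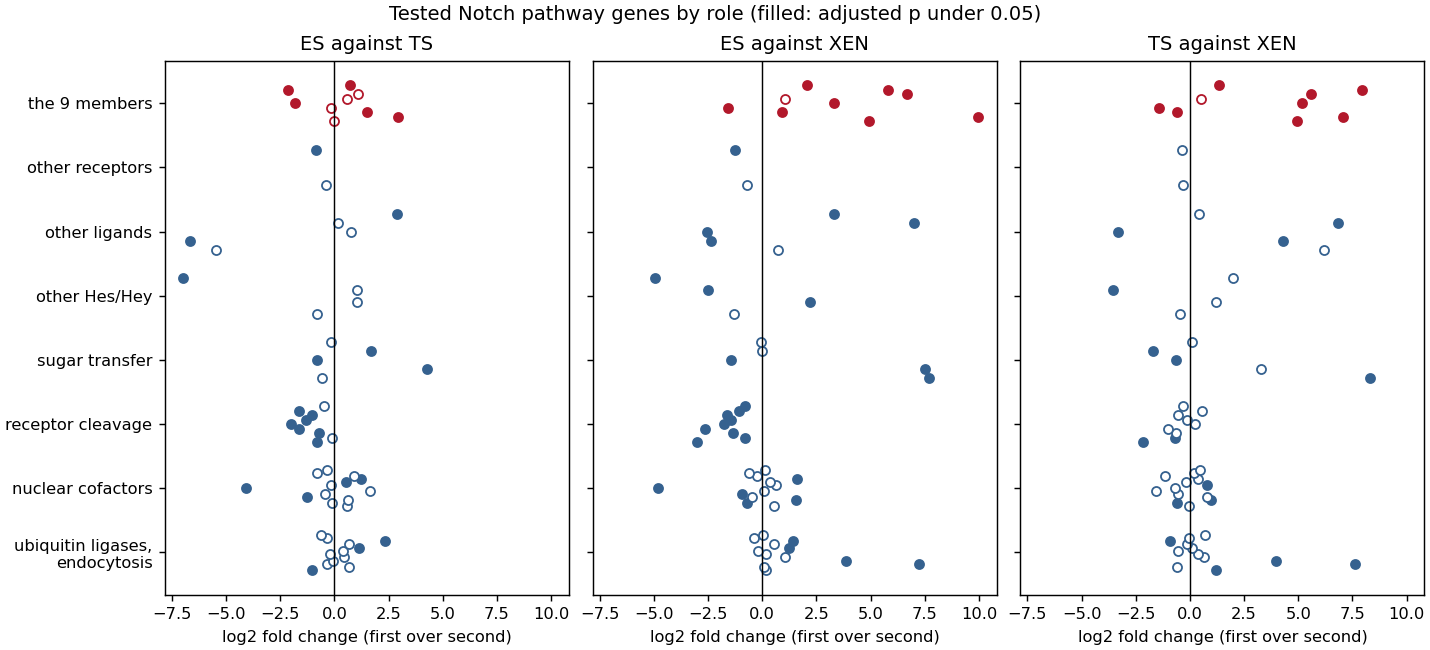
Log2 fold changes of all tested Notch pathway genes by role in the 3 lineage comparisons, the first named lineage over the second, with the 9 genes described here in red, the 50 others in blue and filled circles past an adjusted p of 0.05. The receptor cleavage genes called all lie below 0, 7 in ES against TS, 9 in ES against XEN and 2 in TS against XEN.

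Other ligands differed in their order from Jag2. Jag1 had 37.2 and 24.1 normalised CPM in ES F1 and M2, against 2.27, 3.89 and 6.26 in TS F1, F2 and M3, and it rose by 2.89 in ES against TS lines (SE 0.47, edgeR adjusted p = 0.0033), where Jag2 fell. Dlk2, a Delta-like protein without the usual ligand domain, had 4 counts in ES lines against 890 in TS lines and fell by 6.67 (SE 0.62, edgeR adjusted p = 0.000421), and it was higher in TS than in XEN lines (4.29, SE 0.51, edgeR adjusted p = 0.000897). Dll1, an activating Delta ligand, was lower in TS lines, at 0.230, 1.07 and 0.695 normalised CPM, than in XEN M1 and M2 at 5.99 and 7.09 (log2 -3.31, SE 0.64, edgeR adjusted p = 0.00651). The XEN M2 level rested on 1 passage, with 184 counts (10.7 normalised CPM) against 12 counts (1.15) in the other. Dner, a Delta-like transmembrane protein, had 204 counts in TS lines and 1 count in XEN lines (ratio 152, 95% counting interval 27.0 to 6030). The TS lines were not alike, with 92, 100 and 12 Dner counts in TS F1, F2 and M3.

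Among the glycosyltransferases that tune ligand choice, Lfng had 40 counts in ES, 118 in TS and 0 in XEN lines, so it was at least 20.2-fold higher in ES and at least 29.3-fold higher in TS than in XEN lines, from a floor of 3 counts over the group. Mfng rose by 4.25 in ES against TS lines (SE 0.77, edgeR adjusted p = 0.00501) and had 157 counts in ES against 1 in XEN lines (ratio 238, 95% counting interval 42.1 to 9470). Poglut1, which glucosylates the receptor, rose by 1.68 in ES against TS lines (SE 0.32) and fell by 1.71 in TS against XEN lines (SE 0.32), and Pofut1, which fucosylates it, fell by 1.42 in ES against XEN lines (SE 0.19). All of these passed edgeR's test at an adjusted p of 0.00626 or less. Rfng, in contrast, was at 40.8 to 56.1 normalised CPM in every line and passed no test between lineages.

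Of the Deltex relatives of Dtx1, Dtx3l was likewise nearly absent in XEN lines, with 7 counts, and rose by 7.25 in ES (SE 0.64, edgeR adjusted p = 0.000214) and by 7.60 in TS against XEN lines (SE 0.63, edgeR adjusted p = 0.000213). Dtx4 rose by 3.88 in ES (SE 0.57) and by 3.96 in TS against XEN lines (SE 0.55). Dtx2 and Dtx3, in contrast, were well counted in XEN lines. In XEN M1 and M2, Dtx2 had 26 and 18 normalised CPM and Dtx3 had 36 and 48. Neither passed between ES and XEN lines (edgeR adjusted p = 0.701 and 0.804). Dtx2 was higher in TS than in XEN lines (log2 1.2, SE 0.32, edgeR adjusted p = 0.0234). Neurl1a, a ubiquitin ligase of ligands, rose by 2.34 in ES against TS lines (SE 0.26, edgeR adjusted p = 0.000774). Of the nuclear cofactors, the RBPJ corepressor Spen rose by 1.21 in ES against TS lines (SE 0.20) and by 1.61 against XEN lines (SE 0.23). The coactivator Maml3 fell by 4.10 in ES against TS lines (SE 0.73) and by 4.80 against XEN lines (SE 0.77), and the corepressor Ctbp1 fell by 0.60 in TS against XEN lines (SE 0.14). Hey2, a Hes relative, fell by 3.55 in TS against XEN lines (SE 0.66, edgeR adjusted p = 0.0056), with 17 counts in TS and 146 in XEN lines. The values given for Dtx4, Spen, Maml3 and Ctbp1 passed at an edgeR adjusted p of 0.015 or less.

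In the embryos, 6 of the 9 genes passed the filter on low counts, and 0 were called between null and Nanog-bearing (heterozygous and wild-type) embryos, where 0.0154% of the 12965 genes tested, 2 genes, were called. The count at an unadjusted p under 0.05 was 0 of 6 as well, against 644 of all genes, and DESeq2 and limma voom also called 0 of them. Values of each of the 9 genes overlapped between null and Nanog-bearing embryos, with Nrarp at 0 in every embryo. The share of all genes that overlapped was not counted, so the overlap only describes the 9 genes and does not set them apart. Variation between embryos was wide (edgeR's common coefficient of biological variation was 0.979, against 0.346 in lines), so that the embryo data bound these differences only loosely.

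**Figure D4:**
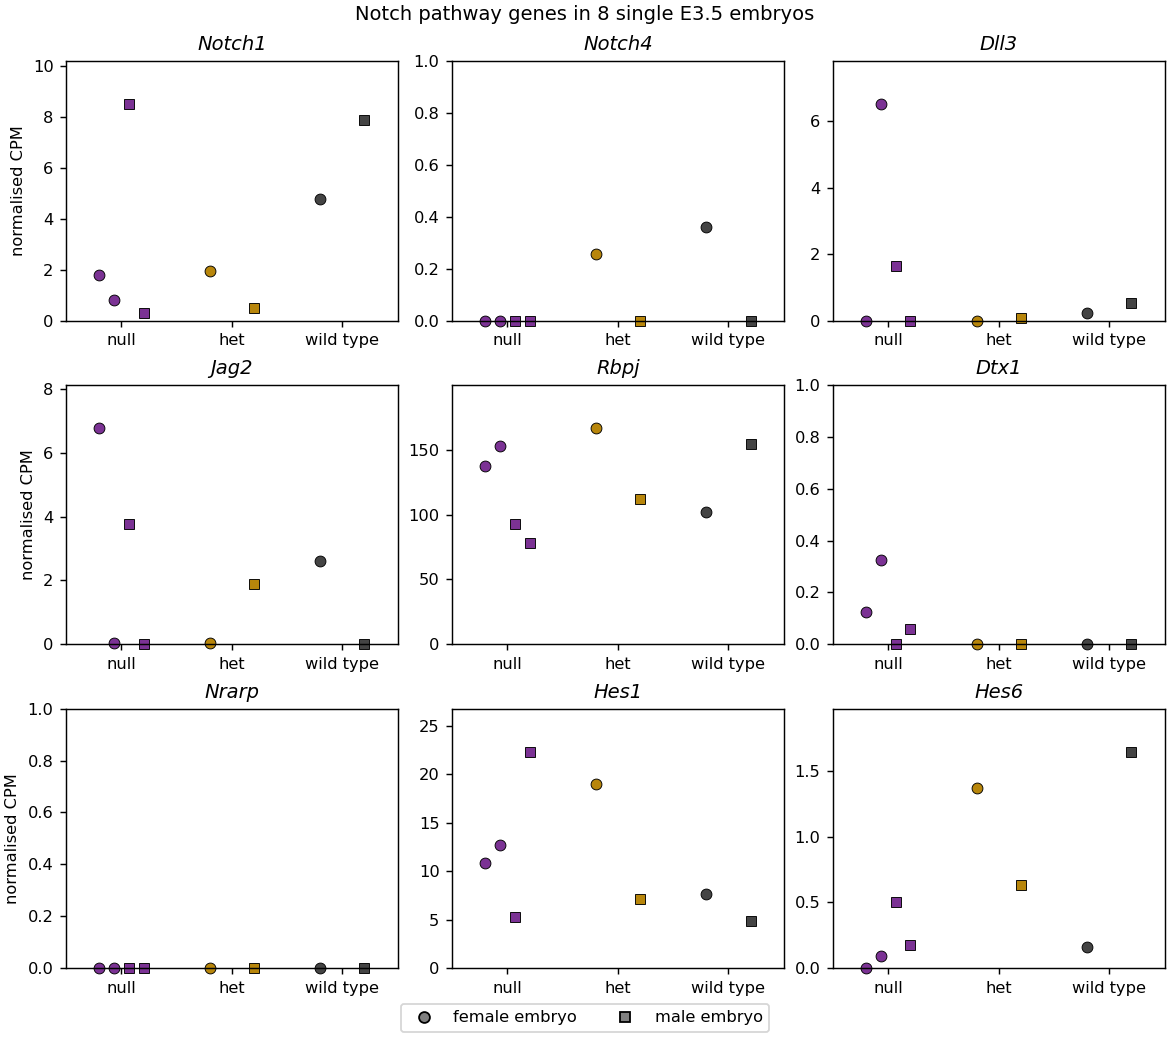
Normalised CPM (linear axes from 0, a separate scale per gene) of the 9 genes in 8 single embryos at embryonic day 3.5, with null, heterozygous and wild-type embryos from left to right, circles for female and squares for male. Nrarp is at 0 in all 8, Dtx1 is above 0 in 3 null embryos only, and Dll3 reaches 6.51 in null F2.

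Rbpj and Hes1 were the genes of the set that were well counted in all 8 embryos. Rbpj had 137, 153, 93.0 and 77.7 normalised CPM in null F1, F2, M1 and M2, against 167 and 112 in heterozygous F and M and 102 and 154 in wild-type F and M (log2 fold change -0.27, SE 0.30, edgeR adjusted p = 0.998). Hes1 had 10.9, 12.7, 5.27 and 22.3 in the same null embryos, against 18.9 and 7.10 in heterozygous and 7.59 and 4.84 in wild-type embryos (0.59, SE 0.87, edgeR adjusted p = 0.998). The highest Hes1 value was that of null M2, and without null F1 and M2 together the difference was -0.02.

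The other genes were detected unevenly from embryo to embryo. Notch1 had 1.80, 0.791, 8.48 and 0.293 normalised CPM in null F1, F2, M1 and M2, against 1.93 and 0.507 in heterozygous and 4.78 and 7.86 in wild-type embryos (log2 fold change -0.21, SE 1.68, edgeR adjusted p = 1). Dll3 had 0, 6.51, 1.66 and 0 in the null embryos, against 0 and 0.0634 in heterozygous and 0.241 and 0.538 in wild-type embryos (3.99, SE 2.78, edgeR adjusted p = 0.962). Jag2 had 6.77, 0.0465, 3.76 and 0 in the null embryos, against 0.0428 and 1.90 in heterozygous and 2.61 and 0 in wild-type embryos (1.18, SE 2.38, edgeR adjusted p = 0.998). Null F2 had 140 of the 173 Dll3 counts of the null embryos, and without it the Dll3 difference was 0.90 (edgeR adjusted p = 0.997). Null F2 and M1 held all Dll3 counts of the null embryos, and null F1 and M1 nearly all of their Jag2 counts. Without null F1 and M2 together Notch1 was at 0.36 and Jag2 at -1.09.

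Hes6 had 0, 0.0930, 0.502 and 0.176 normalised CPM in null F1, F2, M1 and M2, against 1.37 and 0.634 in heterozygous and 0.161 and 1.64 in wild-type embryos (log2 fold change -2.74, SE 2.00, edgeR adjusted p = 0.965). The wild-type female lay among the null values. Notch4 had 0 counts in the null embryos and 15 in the Nanog-bearing ones, 6 in heterozygous F and 9 in wild-type F. Dtx1 had 10 counts in the null embryos, 2, 7, 0 and 1 in F1, F2, M1 and M2, and 0 in the Nanog-bearing ones. Nrarp had 0 counts in all 8 embryos, which allows up to 0.0402 normalised CPM over the null and 0.0308 over the Nanog-bearing embryos. These 3 genes were too low to be tested. Some markers of other cell types appeared in null F2, which had 7 of the 10 Dtx1 counts and most Dll3 counts, and in null M2. Dcn was at 1.95 and 3.92 normalised CPM in null F2 and M2, Lum at 0.605 and 0.702 and Dcx at 1.21 and 1.29, and all 3 were at 0 in the other 6 embryos. Hba-a1 was at 5.81 and 4.80 in null F2 and M2, and at 0.239 or less in the others. Some other markers of the same lists went the other way. Fbln5 was at 0 and 0.0585 in null F2 and M2, against 2.33 to 11.9 in heterozygous M and the wild-type embryos. Laptm5 was at 0.0465 and 0.117, against 6.83 to 16.4 in those embryos. Nes was at 0.14 and 0.176 in null F2 and M2, against 8.93 in null M1. The 8 fibroblast markers summed to 0 to 7.37 in null, 0.0857 to 12.2 in heterozygous and 2.33 to 6.40 in wild-type embryos, and the 8 blood markers to 6.07 to 11.9, 4.63 to 17.9 and 10.4 to 11.8. In the same order, the 8 neural progenitor markers, with Dcx and Nes among them, summed to 1.3 to 10.6, 3 to 5.95 and 6.22 to 8.52. Their part in the embryo values was not tested.

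Of the 54 other Notch pathway genes, 36 were tested in embryos and 0 were called. The smallest p-values were those of Nedd4, a ubiquitin ligase (-1.16, SE 0.53), Mfng (-5.29, SE 2.47) and Mib2, a ligase of ligands (-2.72, SE 1.36), each with an edgeR adjusted p of 0.931. Mfng had 50, 36 and 88 counts in heterozygous F, heterozygous M and wild-type F. It had 9 counts in null F2 and 0 in wild-type M and the other null embryos. Mib2 was at 0.124 and 0.117 normalised CPM in null F1 and M2, and at 11.3 and 3.31 in null F2 and M1, against 15.7 to 27.7 in the Nanog-bearing embryos. Null F1 and M2 are the embryos with the most undetected genes, whose part in these values was not tested.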

How the data were processed

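Per the file headers, the deposited table holds raw counts per gene symbol for 22 libraries, and the authors normalised nothing in it. The submitters' processing notes name mm9 as the build and TopHat 1.3.1 and edgeR, without its version, as tools. Which program and annotation gave the counts, and whether strand was used, is not given in the sources used here, so reads of overlapping genes could not be told apart. The 9 genes and the gene lists were chosen with earlier results of these data known.

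Counts of the 2 passages of a line were summed. Lines and embryos were fitted separately with edgeR 4.0.16 in R 4.3.3 (TMM, filterByExpr, robust quasi-likelihood test, Benjamini-Hochberg adjustment over all genes). The embryo fit had genotype and sex as terms, and null was set against the mean of heterozygous and wild type. The labels do not say whether lines or embryos of a group share a source, so p-values measure the spread between these samples. Each SE was obtained from the log2 fold change and its F statistic (absolute value over the root of F). Intervals (95%) and floors (3 counts) cover counting error only. Code was tested on simulated data. Named by rule were all 9 genes, up to 5 called genes each way of the other pathway genes by smallest p, or 3 as values where none was called, and the 2 nearest patterns per gene. Notch2, Notch3, Rfng, Dtx2 and Dtx3 were added outside that rule, beside their relatives. DESeq2 1.42.0 and limma 3.58.1 gave alternatives. Leaving out null F1 and M2 together was chosen after seeing the data. The authors' list of regulated genes holds none of the 9 and was not used.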

Additional observations from a re-analysis of the deposited data

Results flagged for a closer look

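In 34 groups of 4 or 6 libraries, 2 single libraries lay far from the rest of their group, where chance gives about 1 group in 20. The count of 2 is close to that rate. The rate holds for independent libraries, and passages of a line are not independent, so it is a rough guide only. Passage 1 of TS F1 had 198 normalised CPM of Rbpj, and the next highest of the 6 TS libraries had 149. Passage 1 of TS M3 had 13.3 normalised CPM of Dtx1, and the next highest TS library had 7.43. The second passage of the same line was the lowest of the 6 in both cases, at 123 for Rbpj in TS F1 and 4.92 for Dtx1 in TS M3.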

How the results depend on the processing

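Of 117 values per line comparison (9 genes under 13 alternatives), 104 for ES against TS, 111 for ES against XEN and 104 for TS against XEN kept their direction and their side of the threshold. Of 84 embryo values, 73 did, and 0 were called. Leaving out 1 line at a time gave 2 to 6 called members in ES against TS, the lowest without ES F1, and 2429 to 6233 called genes in ES against TS and 3997 to 7646 in ES against XEN. It turned small differences round: ES over TS ranged from -0.159 to 0.0746 for Dll3 and from -0.326 to 0.0781 for Hes6, and TS over XEN from -0.0641 to 1.44 for Notch1. In embryos, all genes called numbered 50 with every gene of at least 1 count, 163 with DESeq2, 0 with limma voom (1167 at an unadjusted p under 0.05), 1 without null F1 and M2 together and 1 to 2 without 1 embryo. Leaving out 1 embryo gave -1.93 to 0.77 for Notch1, -2.03 to 5.50 for Jag2, -0.562 to 0.0851 for Rbpj and -0.0868 to 0.933 for Hes1. Notch1 was 0.0322 with no sex term, and without null F1 and M2 together Notch1 was 0.36, Jag2 -1.09 and Hes1 -0.0249. The causes were not tested. Passages with the same number did not pair (median r 0.0019 over 21 pairs, 2 over 0.1). With the 14 libraries unsummed and a replicate block, 6, 9 and 8 members were called in the 3 line comparisons, and the same numbers without the block, so unsummed passages and not the block added calls, Notch4 in ES against TS (adjusted p = 0.0182 with the block) and Notch1 in ES against XEN (0.0211). Depth limits Notch4, Dll3, Dtx1 and Nrarp in XEN lines and Notch4, Dtx1 and Nrarp in embryos, which rest on 16 counts or fewer.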
